A study of Homo sapiens with 6 samples.

Results

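The genes described here encode the motile axoneme apart from its dynein arms: radial spokes, central pair, nexin-dynein regulatory complex, tektins and the numbered cilia and flagella associated proteins (CFAPs). Members were chosen by gene symbol alone, as every CFAP, RSPH, TEKT or DRC symbol of the deposited table plus 16 named axonemal genes, which gave 58 of 58051 genes. The family was proposed because motile cilium genes had already been seen to fall in these same libraries, so the values below describe that fall and do not test it independently. RNA was sequenced from HEK293T cells, a human embryonic kidney line with the SV40 T antigen, harvested 48 hours after transient transfection with 2 to 28 µg of plasmid by a Lipofectamine reagent and growth in OptiMEM. One group of 3 libraries received the empty vector pcDNA3.1-, and the other group of 3 received pcDNA3.1-ppk1, which carries a bacterial kinase that builds polyphosphate chains. Libraries of both groups are lettered B, C and D, and the design text describes those of a letter as matched biological replicates. The labels' protocol also names an HA-tagged ppk1 plasmid, which no library's own label mentions. The share of cells that took up plasmid is not given, and the ppk1 transcript itself was not analysed here.

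A motile axoneme has a ring of doublet microtubules around a central pair. Dynein arms on the doublets slide them past each other, and signals from the central pair reach the arms through the radial spokes and the nexin-dynein regulatory complex. Tektins and other proteins inside the doublets stiffen them. In multiciliated and sperm cells most of these genes are switched on together by FOXJ1 and RFX factors. HEK293T cells are not known for motile cilia, and several of the proteins, such as STK36, CFAP20 and CFAP36, also work outside the axoneme.

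The 6 libraries held between 40851783 and 67122986 counts, and 3 counts correspond to between 0.0447 and 0.0734 CPM (counts scaled to a common library size). The marker genes of multiciliated cells were mostly low. C20orf85 had 0 counts in all 6 libraries and SNTN at most 1, while MCIDAS averaged 5.45 CPM with the empty vector and 5.76 CPM with ppk1. TP73 (15.3 and 17.7 CPM) and CCNO (6.6 and 7.0 CPM) stood higher. With MCIDAS they made up most of the sum of the 12 markers. The 12 markers summed to between 30.2 and 35.2 CPM with the empty vector and between 34.6 and 35.3 CPM with ppk1, and 1 of the 8 tested, FOXJ1, was called lower. Of the 6 sperm markers, 5 had 0 counts throughout. All 7 genes taken as defining the HEK293T line were detected, with empty vector means from 3.00 CPM for PAX2 to 508.5 CPM for vimentin (VIM). Of these 7, the neurofilament gene NEFL was called lower (log2 fold change -0.29) and the keratin gene KRT18 higher (0.28), and their part in the results was not tested. The same rule called 5.04% of all tested genes lower and 4.04% higher.

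A minority of the axonemal genes fell with ppk1. Of the 58 members, 49 passed the filter on low counts. Levels fell for 14 of these 49 (28.6%) and rose for 0, at an adjusted p below 0.05 in edgeR's quasi-likelihood test with the replicate letter as a block. Across all 19574 tested genes, the same rule called 5.04% lower and 4.04% higher. The largest falls were in EFCAB6, which encodes a protein inside the doublet, and CFAP43, which encodes part of the tether of an inner dynein arm. Log2 fold changes of tested members ran from -1.55 to 0.56, and the 4 most abundant members were not called.

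Among tested members, 36 had a negative log2 fold change, and the median was -0.29, against 0.01 over all tested genes. All 14 called genes were lower in all 3 pairs, and their CPM ranges did not overlap between groups. Both largely follow from how these genes were picked. Of the 49 tested members, 28 were lower in all 3 pairs and 5 were higher in all 3. Of the 19574 tested genes, 4137 and 4430 were. In total, 21 tested members had ranges that lay fully lower with ppk1, and 2 (TCTE1 and TEKT3) had ranges fully higher. Over all tested genes the shares were 12.6% and 13.0%. An estimated fall of at least 2-fold, with the gene called lower, was seen for 4 members (EFCAB6, CFAP43, CFAP99 and CFAP53) and 0.92% of all tested genes. The 95% intervals of the log2 fold changes of CFAP99 (-1.89 to -0.42) and CFAP53 (-1.41 to -0.67) also cover smaller falls. CFAP99 had at most 20 counts per library. At an unadjusted p below 0.05 in the same edgeR test, 20 of the 49 were lower and 1, CFAP44, was higher, against 11.6% lower and 12.2% higher over all tested genes. The number called lower was 9 without the replicate block (background 1.95%) and 8 without replicate C (1.64%), so 6 of the 14 calls were lost when the pair lettered C was left out.

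**Figure D1:**
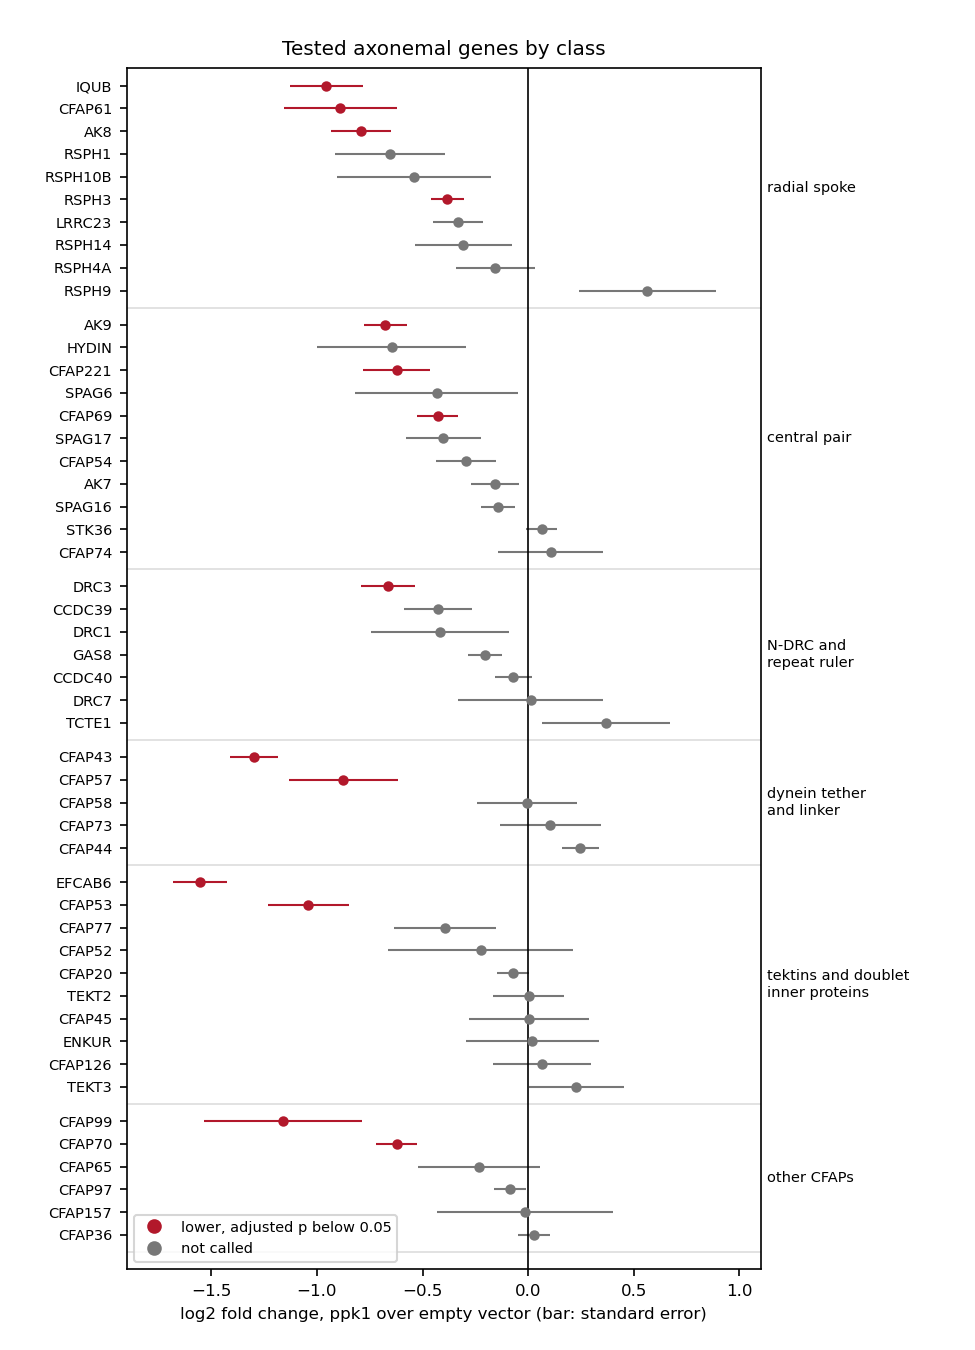
Log2 fold change (ppk1 over empty vector, x axis) of the 49 tested members by class, with standard errors as bars. The 14 called genes, in red, all lie left of 0 and occur in each of the 6 classes.

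The radial spokes are T-shaped complexes that link the doublets to the central pair. Of 12 spoke members, 10 were tested and 4 fell, and the class median was -0.46. IQUB, a spoke protein with a calmodulin-binding motif, stood at 2.12, 2.39 and 2.50 CPM in empty vector libraries B, C and D. With ppk1 it stood at 1.27, 0.960 and 1.36 CPM. The groups lay well apart, with a log2 change of -0.96 (SE 0.17, adjusted p 0.000115). AK8, an adenylate kinase of the axoneme, had 3.67, 3.75 and 3.55 CPM with the empty vector and 2.10, 2.21 and 2.03 CPM with ppk1. Its libraries hardly differed within a group, and its log2 fold change was -0.79 (SE 0.14, adjusted p 9.29e-05). RSPH3, a protein of the spoke stalk that also anchors protein kinase A, was the most abundant of the class per length of transcript. It had 33.3, 30.4 and 30.6 CPM with the empty vector and 26.3, 23.2 and 22.9 CPM with ppk1, a log2 change of -0.38 (SE 0.08, adjusted p 0.000628, and 0.0833 without replicate C). CFAP61, part of a calmodulin-binding complex at the spoke base, fell from 0.773 ± 0.034 to 0.424 ± 0.090 CPM (mean ± SD, n = 3). This rested on 17 to 42 counts per library. Its edgeR adjusted p of 0.0254 became 0.0734 without the block, 0.162 without replicate B and 0.102 without replicate C. CFAP61 kept the call under 5 of the 10 alternatives that gave it an adjusted p.

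Among the spoke head genes, RSPH1, RSPH4A and RSPH9 were not called. RSPH1 had a log2 change of -0.65 (SE 0.26, edgeR adjusted p 0.105), RSPH4A one of -0.15 (SE 0.19) and RSPH9 one of 0.56 (SE 0.33), at 12 to 100 counts per library. The 95% intervals of RSPH4A (-0.52 to 0.21) and RSPH9 (-0.07 to 1.20) both included 0. LRRC23, a spoke head protein with leucine-rich repeats, went from 5.67 ± 0.74 to 4.51 ± 0.10 CPM (mean ± SD, n = 3), and its groups did not overlap (edgeR adjusted p 0.069, and 0.0121, called lower, with offsets for GC content and length). RSPH10B shares 89.3% of its transcript sequence with RSPH10B2, so its 10 to 15 counts per library cannot be assigned to it with certainty. RSPH6A, known from sperm, had at most 2 counts in any library.

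The central pair class held 13 members, of which 11 were tested and 3 fell, with a median log2 fold change of -0.40. AK9, a nucleoside phosphate kinase, had 9.60, 11.2 and 12.5 CPM with the empty vector and 6.89, 7.22 and 6.56 CPM with ppk1. The ppk1 values were tightly grouped below the lowest control, with a log2 change of -0.68 (SE 0.10, adjusted p 5.73e-06). The third adenylate kinase of the family, AK7, went from 6.15 ± 0.82 to 5.50 ± 0.83 CPM (mean ± SD, n = 3), and its groups overlapped. CFAP221, a protein of a central pair projection, had 2.82, 2.55 and 2.30 CPM with the empty vector and 1.96, 1.38 and 1.65 CPM with ppk1. CFAP69, which belongs to another projection of the same microtubule, had 13.6, 15.2 and 15.9 CPM against 11.9, 8.97 and 12.4 CPM. For CFAP69 the library of replicate C was the lowest of all, and the log2 fold change of -0.43 (edgeR adjusted p 0.00209) became -0.27 (0.46) without that pair. CFAP221 likewise had an edgeR adjusted p of 0.00738, and 0.246 without replicate C.

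The classic central pair scaffold genes were not called. HYDIN had a log2 change of -0.65 (SE 0.35) at 9 to 21 counts per library, and 49.2% of its transcript sequence is shared with HYDIN2. SPAG17 had one of -0.40 (SE 0.18) and SPAG6 one of -0.43 (SE 0.39). SPAG16, the most abundant of the SPAG genes, stood at 21.6, 21.1 and 23.8 CPM with the empty vector and 20.2, 18.8 and 21.2 CPM with ppk1. STK36, a kinase needed to assemble the central pair and related to the Hedgehog regulator Fused, had 47.1, 46.8 and 42.9 CPM against 48.6, 49.4 and 45.0 CPM. Both groups overlapped for SPAG16 and STK36, and the 95% interval of the STK36 log2 fold change ran from -0.08 to 0.21.

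Of the 6 tether and linker genes, 5 were tested and 2 fell. CFAP43 and CFAP44 together tether the motor domains of an inner dynein arm to the doublet. CFAP43 had 7.37, 9.16 and 10.3 CPM with the empty vector and 3.40, 3.42 and 3.97 CPM with ppk1. Every ppk1 library lay far below the lowest control, and the log2 fold change was -1.30 (SE 0.11, adjusted p 4.7e-12). CFAP44 had 13.4, 15.4 and 13.5 CPM with the empty vector and 15.0, 17.8 and 17.5 CPM with ppk1. It was higher in all 3 pairs, its groups overlapped, and its log2 change of 0.25 (SE 0.09) had an edgeR adjusted p of 0.0643. When GC content and length were modelled as offsets, an alternative added after seeing the data, it became the only member called higher (adjusted p 0.00855). A same-strand gene, AC112128.1, covers 25.0% of the CFAP44 exons, so reads of the 2 could be confused. CFAP57, which helps assemble inner dynein arms, fell from 0.851 ± 0.114 to 0.463 ± 0.097 CPM (mean ± SD, n = 3, edgeR adjusted p 0.0213, and 0.0729 without the block). Without replicate C its edgeR adjusted p was 0.353. CFAP57 kept the call under 7 of the 10 alternatives that gave it an adjusted p. CFAP58 and CFAP73 had log2 fold changes of -0.00 and 0.11, with standard errors of 0.24.

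Inside the doublet, 2 of 10 tested genes fell. EFCAB6, an EF-hand protein of the doublet lumen, had 5.87, 6.32 and 7.47 CPM with the empty vector and 2.01, 2.32 and 2.35 CPM with ppk1. Its counts went from between 280 and 310 to between 98 and 134, and the log2 fold change was -1.55 (SE 0.13, adjusted p 4.92e-13). CFAP53, which lines the doublet and is known for left-right body asymmetry, had 2.10, 2.10 and 1.71 CPM with the empty vector. With ppk1 it had 0.823, 0.918 and 1.20 CPM, a log2 change of -1.04 (SE 0.19, adjusted p 0.000126). The pair D showed the smallest fall of CFAP53, at -0.50 on the log2 scale. Of the 5 tektins, filament proteins that run along the doublet, only TEKT2 and TEKT3 were tested. TEKT2 had 1.81 ± 0.08 and 1.83 ± 0.13 CPM, and TEKT3 had 0.765 ± 0.080 and 0.899 ± 0.056 CPM (mean ± SD, n = 3, empty vector and ppk1). TEKT1, TEKT4 and TEKT5 stayed at or below 11 counts in every library. CFAP20, which seals the seam between the tubules of a doublet and was the member with the highest level per length, had 44.7, 48.1 and 53.4 CPM against 44.0, 46.8 and 47.7 CPM. Its groups overlapped, and the 95% interval of its log2 fold change ran from -0.22 to 0.07.

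The nexin-dynein regulatory complex links neighbouring doublets, and CCDC39 with CCDC40 forms the ruler that sets the spacing of spokes and arms. Of these 7 genes, all tested, DRC3 fell. DRC3 had 5.06, 4.97 and 4.60 CPM with the empty vector and 2.99, 3.32 and 2.94 CPM with ppk1, a log2 change of -0.66 (SE 0.13, adjusted p 0.00025). GAS8, another subunit of the complex, had 24.2, 23.0 and 23.5 CPM against 20.5, 21.3 and 19.6 CPM. Its ranges lay apart, yet the log2 fold change was -0.20 (SE 0.08, edgeR adjusted p 0.105, and 0.00405 with the GC and length offsets, which call it lower). CCDC39 had a log2 change of -0.43 (SE 0.16, edgeR adjusted p 0.0862), while its ruler partner CCDC40 had one of -0.07 (SE 0.09). A second same-strand record named CCDC39 covers 60.3% of the CCDC39 exons. Of the CCDC39 transcript sequence, 76.5% is shared with other records, so its counts are uncertain. TCTE1, also a subunit, had a log2 change of 0.37 (SE 0.30) at 15 to 34 counts per library.

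Among the remaining CFAPs, 2 of 6 fell. CFAP70, which binds at the base of the outer dynein arm, had 13.6, 15.6 and 16.5 CPM with the empty vector and 10.5, 8.76 and 10.2 CPM with ppk1. The log2 fold change was -0.62 (SE 0.10, adjusted p 6.43e-06), and pair B showed the smallest fall, at -0.37. CFAP99 fell from 0.375 ± 0.079 to 0.172 ± 0.055 CPM (mean ± SD, n = 3). It had 7 to 20 counts per library. Its edgeR adjusted p of 0.0399 became 0.101 without the block, 0.21 without replicate B and 0.246 without replicate C. CFAP99 kept the call under 4 of the 9 alternatives that gave it an adjusted p. The abundant CFAP36 and CFAP97 had overlapping groups, and the 95% intervals of their log2 fold changes ran from -0.12 to 0.18 and from -0.23 to 0.06.

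**Figure D2:**
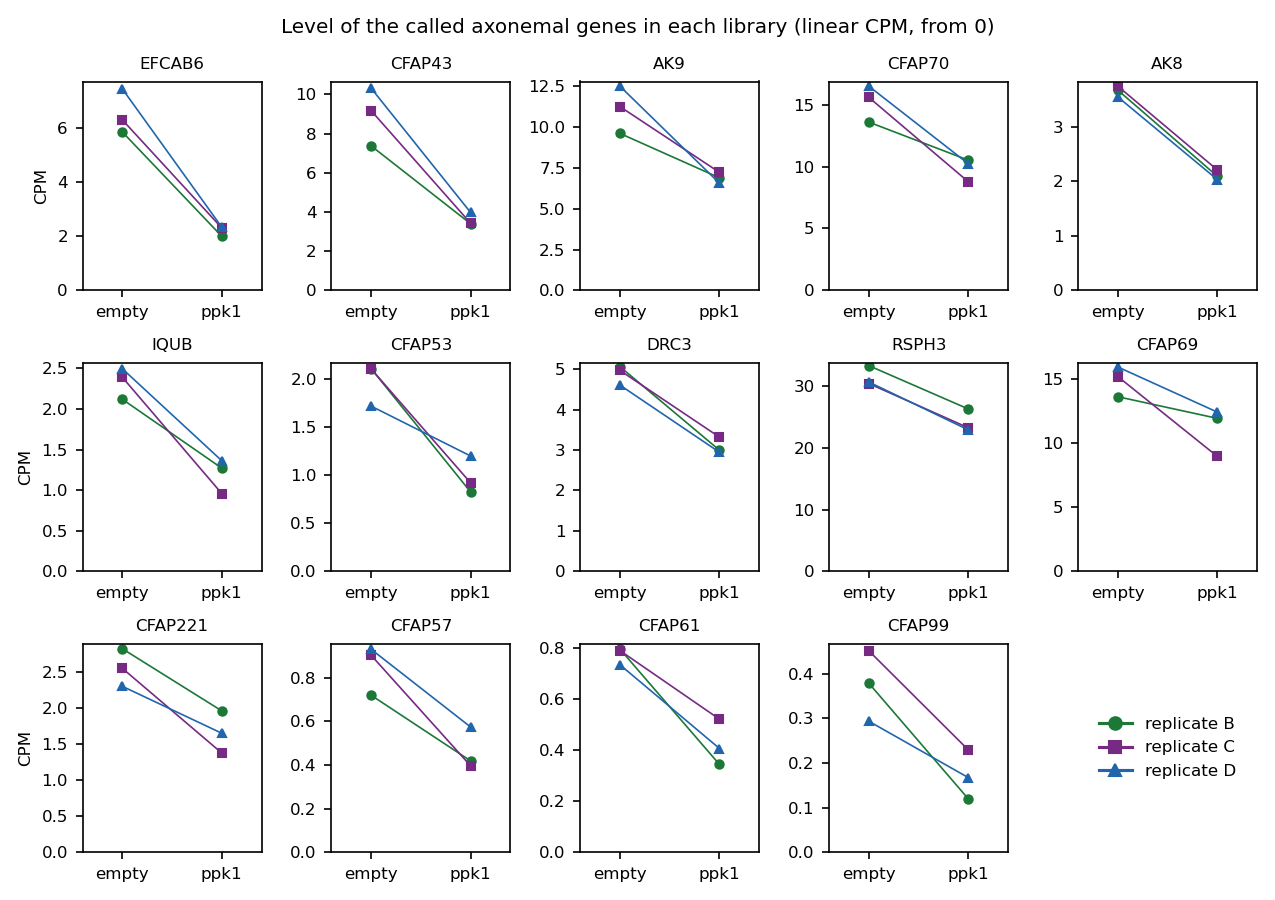
CPM (y axis, linear from 0) of the 14 called members in the empty vector and ppk1 library of each replicate letter, joined by lines. Every line falls, and no ppk1 point reaches the lowest empty vector point of its gene. Both largely follow from how the genes were picked.

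Levels per kilobase of annotated exon separated the members. CFAP20 (20.5 CPM per kilobase in the empty vector libraries), CFAP36 (14.7), CFAP97 (8.73), STK36 (7.06), RSPH3 (4.79) and GAS8 (4.20) led the order. Of these only RSPH3 was called. In CPM, the first 4 of them held 49.2% of the signal of all members with the empty vector, so the summed level mostly reports genes that were not called. The summed level was 412.7, 416.3 and 444.1 CPM with the empty vector and 379.2, 367.2 and 381.0 CPM with ppk1. The 35 members that were tested and not called summed to 311.1, 309.9 and 333.5 CPM against 307.4, 302.7 and 311.6 CPM, with overlapping ranges. The 14 called members summed to 101.0, 105.8 and 109.9 CPM against 71.1, 63.9 and 68.8 CPM, which follows from how they were picked. In bulk RNA, fewer cells that transcribe these genes and less RNA per cell cannot be told apart.

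**Figure D3:**
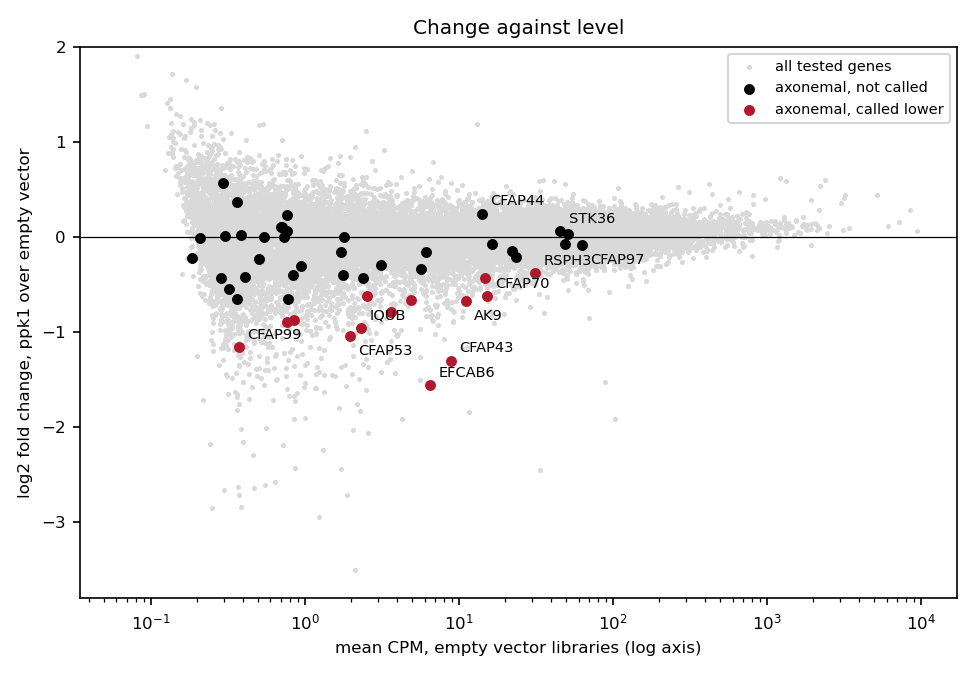
Log2 fold change (y axis) against mean CPM in the empty vector libraries (x axis, log scale) for all tested genes (grey) and the members. The called members lie between 0.375 and 31.4 CPM, and the 4 members above that level lie between -0.09 and 0.06.

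The 9 untested members had at most 13 counts in any library. For 5 of them (CFAP47, CFAP100, RSPH6A, TEKT1 and TEKT4) a whole group was at or under 3 counts, so no fold change is given. CFAP46, CFAP161, CFAP206 and TEKT5 had between 3 and 13 counts per library. Differences in these genes were not detectable at this depth.

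Other genes of the pathway are given side by side, with no test of the difference between lists. For comparison, 5.04% of all tested genes were called lower and 4.04% higher. The outer and inner arm dyneins, motors of the same axoneme, had 10 of 17 tested genes called lower and 0 higher, with a median log2 fold change of -0.79. Assembly factors of the dynein arms had 3 of 12 called lower and 1 higher (median 0.08). Genes for intraflagellar transport, which carries building blocks in primary and motile cilia alike, had 3 of 23 called lower and 0 higher (median -0.13). Of the regulators of motile ciliogenesis, 4 of 14 were called lower and 0 higher (median 0.02). FOXJ1 had 19, 19 and 24 counts with the empty vector and 8, 3 and 3 with ppk1, a log2 change of -2.29 (SE 0.42, edgeR adjusted p 0.000119). RFX3 fell from 17.9 to 12.1 CPM and RFX2 from 19.8 to 14.6 CPM (group means, edgeR adjusted p 1.55e-05 and 0.000288). ULK4 was the fourth called, at -0.37, while TP73 and RFX1, not called, stood at 0.22 and 0.21. The part of these factors in the change of the members was not tested.

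Promoters were examined because the members are known as shared targets of RFX and FOXJ1. RefSeq windows (GRCh38.p14) from 250 bases before to 50 after the start were matched to 50 of the 58 members. The short RFX motif GTTGCC, searched on both strands, occurred in 25 of these 50 windows (50.0%), against 12.2% of 27305 windows of all genes. No test was made of how it was spread over the members. It occurred in 18 of 28 windows of members that were tested and not called (64.3%), in 5 of 9 of untested members (55.6%), and in 2 of 13 of members called lower (15.4%). Read the other way, 2 of 20 tested members with the motif fell, against 11 of 21 without it, and the median log2 fold changes were -0.18 and -0.40. The dynein arm genes with a window did not share this split, since 5 of 7 with the motif and 2 of 7 without it fell. Some of the 17 tested dynein arm genes, of which 10 fell, had no window. Those left out were all called lower, so the split over the whole list is not known. Over all tested genes with a window, 5.58% of those with the motif and 5.31% of those without it were called lower.

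The longer RFX motif known as the X-box occurred in 3 member windows and in 0.458% of all windows, and it may contain the short one. All 3 belonged to uncalled members (SPAG16, CFAP45 and ENKUR). The FOXJ1 core TGTTTAC occurred in 5 of 50 member windows (10.0%), against 3.41% of all windows. These were 2 of 13 called members (CFAP43 and AK8), 2 of 28 uncalled and 1 of 9 untested members. The EGR1 site GCGTGGGCG occurred in 0 of 50 member windows and 0.784% of all, and the SMAD-type GC motif GGCGCC in 9 of 50 and 19.0%. A match is a string of letters and not a measured binding site, and a window without one says nothing about more distant sequence. Only exact matches to these letters were counted, so a window without one may still hold a variant of the motif.

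The 250 bases before the start are printed, 5′ to 3′ on the strand of the gene, for 3 called members and for the 3 uncalled members with an X-box. They were picked to show what each kind of match looks like, so they are not typical of called or uncalled members, and 10 of the 28 uncalled windows hold no short RFX motif. Capitals mark matches to the 2 RFX motifs and to the FOXJ1 core, on either strand. CFAP43 (chr10:104232365-104232614, minus strand) has the FOXJ1 core alone, CFAP70 (chr10:73358865-73359114, minus strand) has no match, and CFAP53 (chr18:50266496-50266745, minus strand) has a short RFX motif next to the start. SPAG16 (chr2:213284214-213284463, plus strand), ENKUR (chr10:25016159-25016408, minus strand) and CFAP45 (chr1:159900166-159900415, minus strand) hold the X-box. In ENKUR and CFAP45 it begins 17 and 19 bases before the start, and in SPAG16 184 bases before it.
CFAP43: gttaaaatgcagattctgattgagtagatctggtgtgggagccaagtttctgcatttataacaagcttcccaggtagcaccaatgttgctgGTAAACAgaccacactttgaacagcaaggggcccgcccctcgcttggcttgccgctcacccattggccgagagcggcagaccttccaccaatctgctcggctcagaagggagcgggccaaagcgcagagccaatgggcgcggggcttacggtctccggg
CFAP70: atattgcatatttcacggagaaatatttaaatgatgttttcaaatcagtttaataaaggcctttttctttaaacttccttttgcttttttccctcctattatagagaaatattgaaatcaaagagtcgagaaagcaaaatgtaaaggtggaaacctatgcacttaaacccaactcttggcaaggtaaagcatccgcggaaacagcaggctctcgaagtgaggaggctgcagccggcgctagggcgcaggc
CFAP53: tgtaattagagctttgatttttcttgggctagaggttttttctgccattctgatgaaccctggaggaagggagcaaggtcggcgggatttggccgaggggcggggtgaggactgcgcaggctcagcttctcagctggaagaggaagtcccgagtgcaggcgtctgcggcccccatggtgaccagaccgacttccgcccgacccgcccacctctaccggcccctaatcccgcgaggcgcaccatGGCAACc
SPAG16: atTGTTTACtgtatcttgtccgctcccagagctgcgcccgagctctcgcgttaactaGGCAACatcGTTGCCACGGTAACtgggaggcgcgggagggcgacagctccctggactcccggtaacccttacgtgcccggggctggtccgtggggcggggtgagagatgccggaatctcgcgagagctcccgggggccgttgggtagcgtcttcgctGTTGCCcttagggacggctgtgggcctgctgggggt
ENKUR: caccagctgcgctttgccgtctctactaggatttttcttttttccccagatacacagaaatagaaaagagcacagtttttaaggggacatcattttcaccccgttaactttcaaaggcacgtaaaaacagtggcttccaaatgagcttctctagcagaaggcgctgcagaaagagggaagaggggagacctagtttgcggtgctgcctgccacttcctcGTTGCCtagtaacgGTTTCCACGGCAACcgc
CFAP45: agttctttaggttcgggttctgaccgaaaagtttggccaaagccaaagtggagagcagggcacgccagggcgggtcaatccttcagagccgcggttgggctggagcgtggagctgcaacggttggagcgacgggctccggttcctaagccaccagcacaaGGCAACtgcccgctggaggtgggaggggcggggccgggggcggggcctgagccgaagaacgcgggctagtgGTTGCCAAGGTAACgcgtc

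**Figure D4:**
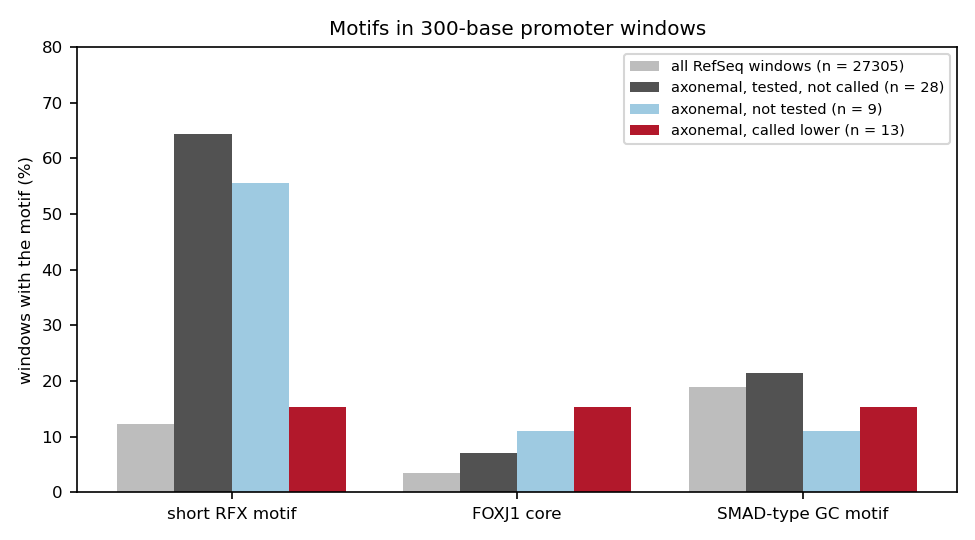
Share of 300-base promoter windows (y axis, percent) that hold the short RFX motif, the FOXJ1 core or the SMAD-type GC motif, for all RefSeq windows and for 3 groups of members. The short RFX motif was in 64.3% of windows of uncalled members and 15.4% of windows of called ones.

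The called members shared few other features that were measured. They lie on chromosomes 1, 2, 4, 6, 7, 9, 10, 17, 18, 20 and 22, and the chromosomes 6, 7 and 10 each hold 2 of them. Their median gene span was 92577 bases and their median exon length 7253 bases, against 45134 and 3887 bases in tested members that were not called. Their median level was 4.27 against 0.783 CPM. The part of length and level in which genes were called was not tested. At least 1 other annotated gene overlaps 10 of the 14 in exons. For 9 it lies on the opposite strand and covers at most 11.6% of the exons, and for CFAP99 it is RNF4 on the same strand. CFAP43, CFAP53, CFAP69 and CFAP221 overlap no other gene, and no called member shares more than 5.0% of its transcript sequence with another gene.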

How the data were processed

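The authors deposited 1 table of raw read counts per gene, with 58051 Ensembl genes and 6 libraries. Poly(A) selection and a directional kit were used per the labels' protocols. The submitters' processing notes list bcl2fastq 2.20, Trimmomatic, STAR, HTSeq, edgeR, DESeq, Cufflinks and Cuffdiff without roles. The genome build, annotation and strand setting of the counting are not given in the sources used here. The test was edgeR 4.0.16 (R 4.3.3, glmQLFit and glmQLFTest) on all genes passing filterByExpr (minimum count 10), with TMM scaling, the replicate letter as a block, and Benjamini-Hochberg adjustment over all 19574 tested genes at 0.05. The design text gives the pairing. Deviations of same-letter libraries correlated at 0.109, 0.135 and 0.0476 (B, C, D) across genes, and those of different letters at -0.12 to -0.00506. Over the 12245 genes averaging at least 200 counts, the values were 0.239, 0.399 and 0.247, against -0.307 to -0.0625. Deviations were taken from group means, so same-letter and different-letter values are not independent. CPM values use TMM-scaled totals, a standard error is the size of a log2 fold change over the root of its F statistic, and 95% intervals are 1.96 such errors on each side. Alternatives were no block, other scalings and filters, DESeq2 1.42.0, thinning, each pair left out, and GC and length offsets. Code was tested on simulated data. Overlaps and exon lengths come from GENCODE release 29, and shared sequence from stretches of 50 bases.

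The members and lists were chosen with earlier results of these data known. Named genes are all members called (at most 30) and the 2 members of each class with the highest mean CPM in empty vector libraries. Other members are named to account for them, and genes outside the family from fixed lists. The GC and length offsets were chosen after seeing the data.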

Additional observations from a re-analysis of the deposited data

How the results depend on the processing

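Of the 14 members called lower, 8 (AK8, AK9, CFAP43, CFAP53, CFAP70, DRC3, EFCAB6 and IQUB) kept the call under all 11 alternatives. The other 6 lost it under at least 1, all of them without replicate C and 5 without the replicate block. The count called lower was 9 without the replicate block, ran from 8 (without C) to 15 (without D) when a pair was left out, and lay between 10 and 16 otherwise. Members called higher numbered 0 in each edgeR fit and in DESeq2, except 1 (CFAP44) with offsets for GC content and length. The members' median was -0.22 with no filter (58 genes), -0.36 over the 26 members averaging 50 counts or more and -0.24 after thinning to equal depth, where different numbers of genes were tested, and ran from -0.29 to -0.24 when a pair was left out. For all genes, calls lower and higher were 381 and 89 without the block, 431 and 323 with DESeq2, 1663 and 1160 with the offsets, and 933 and 422 with upper-quartile scaling, and ran from 324 to 1172 and from 82 to 1263 when a pair was left out. The cause was not tested. The log2 fold change of CFAP36 changed sign, running from -0.0187 (without replicate B) to 0.076 when a pair was left out. The summed level of all members differed by -48.5 CPM, and by -56.1 to -41.3 CPM when a pair was left out. Depth limits the tested members that average under 50 counts, whose standard errors ran from 0.22 to 0.44 on the log2 scale.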
